A study of Mus musculus with 2 samples.

Results

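Thyrotropin-releasing hormone (TRH) is a very short neuropeptide that cells cut out of a larger precursor, the product of Trh. The genes described here are Trh, Trhr, which encodes the TRH receptor, and Trhde, which encodes the TRH-degrading ectoenzyme. In the deposited tables their rows are named TRH, TRHR and TRHDE, and they are 3 of 34376 gene rows, with 3 of 55830 promoter groups and 6 of 83402 transcript rows. The set was chosen by the levels of Trh in these libraries, where it had one of the lowest ratios, so its difference is given as a description. The differentiated library came from the mouse embryonic stem (ES) cell line E14 (strain 129P2/OlaHsd, passage 29) after 4.5 days in 0.1 µM all-trans retinoic acid without feeder cells, and is a mixed population. The undifferentiated library came from E14 cells of the same passage kept with leukaemia inhibitory factor on embryonic fibroblast feeders, of which the labels put less than 0.25% in the harvest. The labels put dead cells at 2% for the undifferentiated and 8% for the differentiated sample. Each condition has 1 library read on 2 lanes, so there is no replicate culture, no test and no p-value, and each ± gives the lane SD, which covers sequencing and read assignment alone.

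In the hypothalamus, neurons of the paraventricular nucleus release TRH to make the pituitary secrete thyrotropin and prolactin. The precursor is cut at pairs of basic residues by prohormone convertases, trimmed by a carboxypeptidase, closed at its first residue into a ring by a glutaminyl cyclase and amidated at its end. The receptor is coupled to G proteins of the Gq and G11 class and raises calcium through phospholipase C. The ectoenzyme, a membrane aminopeptidase with a zinc ion, cuts the ring-closed residue off the peptide outside the cell.

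The Trh message carries the peptide in several copies, shown here because each is a separate source of the hormone. In the reference transcript of 1384 bases (GENCODE vM21, GRCm38, mouse chromosome 6) the coding sequence of 256 codons held 5 stretches that spell glutamine, histidine, proline and glycine, the residues from which TRH is made. All 5 had a pair of codons for basic residues on both sides. The capitals mark the 4 hormone codons and the lower-case letters the flanking codons.
Copy 1, codons 77 to 80: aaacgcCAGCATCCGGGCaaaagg
Copy 2, codons 109 to 112: aaacgaCAGCACCCTGGCcgacgt
Copy 3, codons 154 to 157: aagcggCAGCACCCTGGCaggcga
Copy 4, codons 172 to 175: aagaggCAGCATCCAGGCcggagg
Copy 5, codons 203 to 206: aaacgtCAGCATCCTGGCaaaagg
Copies 2 and 3 were spelled alike within the capitals, and the 5 copies used 4 spellings in all.

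The 250 bases before the start of Trh and of Trhde are given because these 2 genes were highest in opposite libraries. Both are RefSeq windows on GRCm38.p6, 5′ to 3′ on the minus strand, and end at the base before the start. Capitals in the Trh window mark TGACCTCA, a sequence known from the human TRH promoter to bind thyroid hormone receptors and CREB factors, and ATATAA, part of a TATA-like stretch.
Trh, chr6:92244651-92244900: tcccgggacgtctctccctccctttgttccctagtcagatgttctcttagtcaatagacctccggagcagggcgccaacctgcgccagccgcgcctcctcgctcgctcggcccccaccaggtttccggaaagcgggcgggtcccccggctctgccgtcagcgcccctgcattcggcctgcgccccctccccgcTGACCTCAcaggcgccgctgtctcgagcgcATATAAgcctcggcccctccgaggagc
Trhde, chr10:114802303-114802552: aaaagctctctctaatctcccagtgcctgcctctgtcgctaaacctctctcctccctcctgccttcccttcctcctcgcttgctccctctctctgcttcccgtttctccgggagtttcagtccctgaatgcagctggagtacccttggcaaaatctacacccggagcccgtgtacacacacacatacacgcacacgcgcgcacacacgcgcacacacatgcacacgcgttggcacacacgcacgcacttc
Searched on both strands, TGACCTCA occurred once in the Trh window, 57 bases before the start, and was present in 1.94% of 32851 windows of the same length. Its first letters, the nuclear receptor half-site TGACCT, matched at the same place alone and were found in 14.0% of windows. ATATAA began 27 bases before the start of Trh and was found in 9.10% of windows, and CCGCCC, a letter string of GC boxes, matched once, at 117 bases, against 32.7% of windows. The cyclic AMP element TGACGTCA (1.55% of windows) and the octamer ATGCAAAT (1.6%) were not among the letters of this window, and none of the 6 strings was among those of the Trhde window. The Trh window was 68.8% G and C with 25 CpG pairs, and the Trhde window was 58.0% with 16. Over all windows the medians were 52.4% and 6 pairs. These matches describe the letters and say nothing about binding in these cells.

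Trh was about 105-fold lower in the differentiated library, Trhr was close to no reads throughout, and Trhde was detected in the differentiated library alone, at a very low level. Expression is given as RPKM, reads scaled to the length of the transcript and to the depth of the lane. The gene values of Trhr and Trhde were the sums of their transcript values. No row of 79 for ribosomal proteins was listed at 0. In bulk RNA, fewer cells of a type and less RNA per cell cannot be told apart.

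Trh (mm9 chromosome 6, 92192055 to 92194644, minus strand) stood at 2.66 and 1.73 RPKM in the differentiated lanes, against 228 and 231 RPKM in the undifferentiated lanes. Both differentiated lanes lay far below both undifferentiated lanes. The means were 2.19 ± 0.658 RPKM in the differentiated library and 229.7 ± 2.36 RPKM in the undifferentiated library. The undifferentiated level was 105 times the differentiated one, and on the scale of log2(RPKM + 1) the ratio of differentiated to undifferentiated was -6.17, with -5.97 and -6.41 in the separate lanes. Ordered by RPKM, Trh was at place 14490 of the 34376 genes in the differentiated library and at place 802 in the undifferentiated library. With the transcript length above and the value of 1 read in each lane, these levels stood for about 122 and 76.6 reads in the differentiated lanes and about 11935 and 11575 in the undifferentiated lanes. The differentiated lanes differed 1.54-fold, and 18.8% of 5234 genes at 1 to 5 RPKM in that library differed between lanes by as much or more (median 1.19-fold). The undifferentiated lanes differed 1.01-fold. The differentiated level had the wider lane spread for its size and was above the 0.0333 RPKM that 3 reads in the whole library would give.

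Trh had 1 promoter group and 1 transcript row, so its promoter and transcript values equalled its gene value. The first exon in the promoter table ran from 92194542 to 92194644, 103 bases. No other gene row overlapped Trh, Trhr or Trhde, on either strand.

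A floor of 1 RPKM in one library or the other was used throughout. Of the 18019 genes that reached it, 8.46% were lower by 2-fold or more in the differentiated library and 19.1% were higher by as much, 27.6% in all. Trh was the only one of the 3 genes at this floor. The rule that chose Trh used this contrast, so nothing is read from its place. Just 3 genes at the floor had a lower ratio, namely Obox3 (-7.06), the row AK220028 (-6.51) and Gm9980 (-6.24). The ratio of Obox3 rested on 1 lane, with -0.73 and -7.82 in the separate lanes.

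Trhr (mm9 chromosome 15, 44027681 to 44067458, plus strand) was listed at 0 in both differentiated lanes and at 0 and 0.0313 RPKM in the undifferentiated lanes. The single value above 0 stood for about 1.98 reads. A library with no read of Trhr allows a level of up to 0.0264 RPKM (3 reads in both differentiated lanes, on a transcript of 1745 bases), so a difference between the libraries was not detectable at this depth. The log2 ratio was -0.02. Trhr had 1 promoter group, and of the level in the undifferentiated lane 90.8%, 9.06% and 0.176% were assigned to its 3 transcript rows, a split of about 1.98 reads. Trhr2, a further TRH receptor gene of rodents, was outside the rule by its symbol. It was at 0.168 and 0.0792 RPKM in the differentiated lanes and listed at 0 in both undifferentiated lanes, about 7.44 and 3.40 reads in the differentiated lanes, and its annotated span overlaps a row named Galnt2.

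Trhde (mm9 chromosome 10, 113835877 to 114239363, minus strand) was at 0.161 and 0.226 RPKM in the differentiated lanes and listed at 0 in both undifferentiated lanes. Every differentiated lane lay above every undifferentiated lane, and the differentiated mean was 0.194 ± 0.0462 RPKM. These values stood for about 30.4 and 27.3 reads, on a gene whose long transcripts gather reads at a low RPKM. The undifferentiated library, with no read, allows up to 0.0114 RPKM (3 reads, on the shorter transcript of 3557 bases). The log2 ratio with the pseudocount of 1 was 0.26, which hides a difference of this size at so low a level, and no fold is given against a library at 0. Both differentiated values lay under the floor of 1 RPKM.

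The 2 differentiated lanes assigned the Trhde reads to different transcripts. In lane 1 the whole value, 0.161 RPKM, was given to the transcript named for NM_146241 (5714 bases, starting at 114238426), and in lane 2 that transcript had 0.0218 RPKM, 9.62% of the gene. The other transcript, ENSMUST00000152702 (3557 bases, starting at 114239363), was listed at 0 in lane 1 and had 0.204 RPKM in lane 2. Both lanes hold the same library, so the share of each transcript was not determined at this depth. The promoter table puts both transcripts, and ENSMUST00000152282, which has no transcript row under Trhde, in 1 group whose first-exon span is 1788 bases. The transcript named for NM_146241 starts inside that span, so the starts of the 2 transcripts are not told apart there. The group's value equalled the gene value.

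**Figure D1:**
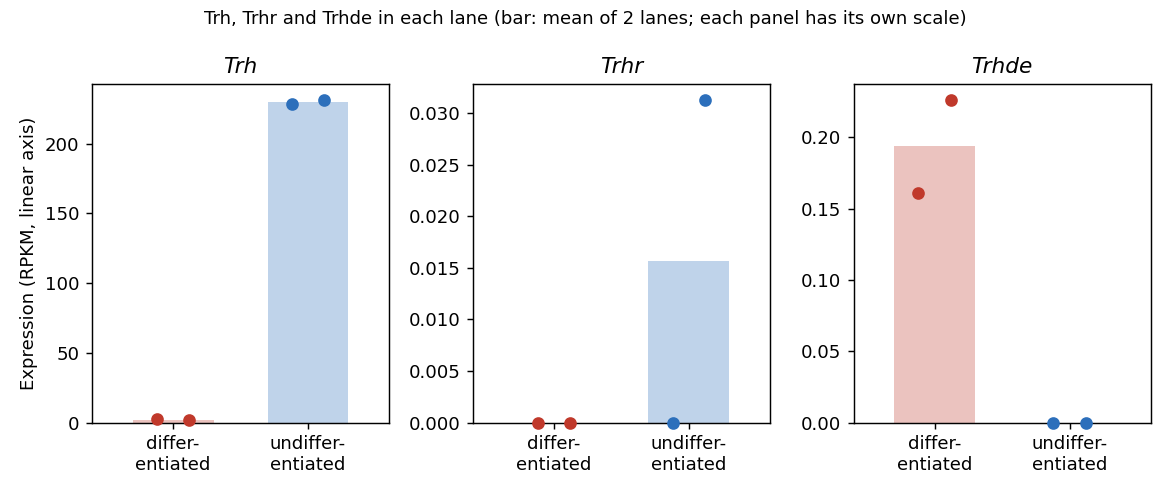
Expression in RPKM on a linear axis, with bars for the mean of 2 lanes and points for the lanes, in the differentiated (red) and undifferentiated (blue) libraries. Trh stands at 2.66 and 1.73 against 228 and 231 RPKM, while the panels of Trhr and Trhde reach just 0.0313 and 0.226 RPKM, on scales of their own.

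Among the hormone precursors matched here, Trh had the highest level in the undifferentiated library. Trh was chosen by its levels in these libraries, so nothing is read from its place or share among them. Of 30 genes for neuropeptides and releasing hormones, 27 were matched and 21 of these stayed under 1 RPKM in both libraries. Over the whole set of 34376 gene rows, 18019 reached 1 RPKM in one library or the other. The 26 precursor genes other than Trh summed to 16.6 RPKM in the differentiated and 12.5 RPKM in the undifferentiated library, and Trh made up 11.7% of the sum over all 27 in the differentiated and 94.8% in the undifferentiated library. In the undifferentiated library Trh was 74.2 times the next gene, Npy. RPKM is a level per length, so these levels can be set beside each other. Of the 6 genes at the floor 2 were at least 2-fold higher (33.3%, against the 19.1% of all genes) and 2 lower (33.3%, against 8.46%). The 2 lower were Trh and Npy, and Trh was chosen by this contrast, so nothing is read from the lower share. The median log2 ratio was -0.34 over the 6, Trh included, and 0.12 over all genes at the floor. With so few genes this median depends on the setting, being -0.78 with trimmed-mean scaling, 0.17 with equal column sums and 0.22 in lane 2. The genes besides Trh moved by a few RPKM.

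Npy, which encodes the appetite peptide neuropeptide Y, stood at 0.161 and 0.332 RPKM in the differentiated lanes and 2.96 and 3.24 RPKM in the undifferentiated lanes (log2 ratio -1.72). Nmb, which encodes the bombesin-like peptide neuromedin B, was at 7.77 and 8.51 RPKM in the differentiated lanes and 3.21 and 2.81 RPKM in the undifferentiated lanes (1.19), and was the only precursor gene above Trh in the differentiated library. Kiss1, the precursor gene of kisspeptin, was at 1.39 and 1.64 RPKM in the differentiated lanes and 0.126 and 0.226 RPKM in the undifferentiated lanes (1.10). The lanes of the libraries did not overlap for any of the 4 genes. These were named for the largest ratios of the list, so nothing is read from that separation.

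**Figure D2:**
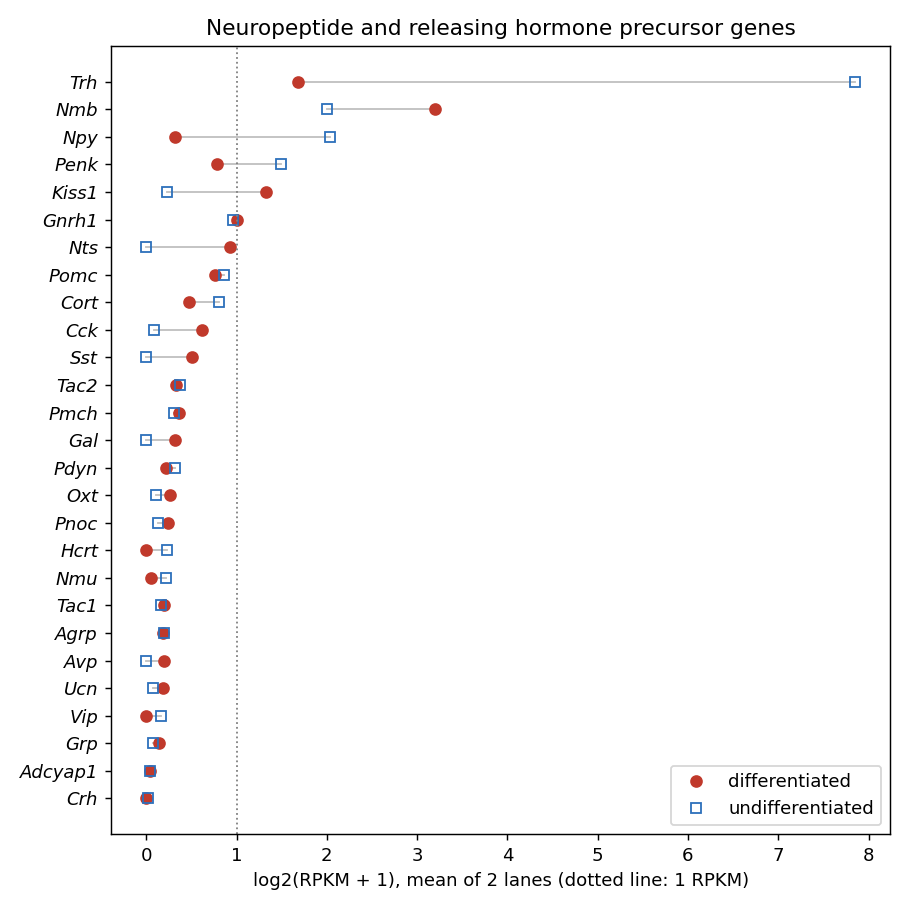
Levels of 27 precursor genes as log2(RPKM + 1), mean of 2 lanes, in the differentiated (red circles) and undifferentiated (blue squares) libraries, ordered by the higher level. Trh is the one gene far to the right, at 229.7 RPKM in the undifferentiated library, and 21 genes lie left of the dotted line at 1 RPKM in both.

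The genes that could turn the precursor into hormone differed in both directions. Of 18 genes for processing enzymes and granule proteins 13 were at the floor, and 7 were higher, 3 lower and 3 between (53.8% and 23.1%, against 19.1% and 8.46% of all genes; median log2 ratio 1.07). Pcsk1 and Pcsk2, the convertases that cut the TRH precursor in neurons, were under the floor, at 0.192 and 0.298 RPKM in the differentiated and 0.571 and 0.742 RPKM in the undifferentiated library. Genes of secretory granules and their helpers were split. Chgb, Scg2 and Scg3 were under the floor, while Chga, chromogranin A, was at 1.29 ± 0.392 RPKM in the differentiated and 5.76 ± 0.746 RPKM in the undifferentiated library (log2 ratio -1.56). Pcsk1n, which encodes an inhibitor of Pcsk1, was at 6.79 ± 0.348 and 1.59 ± 0.187 RPKM in these libraries (1.59), and Scg5, which encodes a chaperone of Pcsk2, at 1.6 ± 0.472 and 0.237 ± 0.0117 RPKM (1.07, with 1.25 and 0.86 in the lanes). Furin, the convertase found in nearly all cells, stood at 36.7 ± 2.20 RPKM in the differentiated and 5.19 ± 0.443 RPKM in the undifferentiated library (log2 ratio 2.60). Pcsk6, also called Pace4, was the highest convertase in undifferentiated cells, at 9.22 ± 4.21 RPKM in the differentiated and 32.9 ± 0.104 RPKM in the undifferentiated library (-1.73, with -1.37 and -2.23 in the lanes). Pcsk5 was at 3.38 ± 0.293 and 0.204 ± 0.0809 RPKM in the differentiated and undifferentiated libraries (1.86).

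Enzymes of the later steps were present in both libraries. Cpe, carboxypeptidase E, which trims the basic residues, stood at 59.0 and 59.6 RPKM in the differentiated lanes and 4.43 and 6.05 RPKM in the undifferentiated lanes (3.27). Its relative Cpd was at 15.2 ± 1.10 RPKM in the differentiated and 2.33 ± 0.229 RPKM in the undifferentiated library (2.29). Qpct, a glutaminyl cyclase gene, was at 2.52 and 1.68 RPKM in the differentiated and undifferentiated libraries (0.39), and its relative Qpctl at 5.47 and 4.18 RPKM (0.32). Pam, which amidates the peptide, was at 25.4 ± 8.15 and 10.9 ± 1.22 RPKM in these libraries (1.15). The ratio of Pam was 0.69 in lane 1 and 1.54 in lane 2, so it was past 2-fold in lane 2 alone. Qpct, Qpctl, Pam, Pcsk1, Pcsk2, Pcsk7 and the granule genes and helpers were named after their values were seen, for their roles. In the undifferentiated library the convertase genes with at least 1 RPKM were Furin, Pcsk6 and Pcsk7 (2.57 RPKM, and 0.615 RPKM in the differentiated library).

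Messages for the steps after the receptor were present in both libraries. Of 19 genes for the receptors and their signalling, 15 were at the floor, with 3 higher, 1 lower and 11 between (20% and 6.67%, against 19.1% and 8.46% of all genes), close to the share among all genes. The median log2 ratio was 0.07, a size that takes the other sign under 3 of the 4 other scalings. Gna11 and Gnaq, the G protein subunits that TRH receptors use, were at 35.3 ± 2.03 and 15.4 ± 1.08 RPKM in the differentiated library and 27.2 ± 2.61 and 5.26 ± 1.34 RPKM in the undifferentiated library (log2 ratios 0.36 and 1.39). Arrb2, an arrestin gene, was at 16.1 ± 7.05 RPKM in the differentiated and 31.6 ± 1.68 RPKM in the undifferentiated library (-0.93). The other genes past 2-fold rested on lanes that differed. Rgs4, which speeds the shut-off of Gq, was at 1.81 and 15.4 RPKM in the differentiated lanes and 0.0492 and 0.0385 RPKM in the undifferentiated lanes (3.20). Arrb1 was at 9.44 and 3.03 RPKM in the differentiated lanes and 1.96 and 1.87 RPKM in the undifferentiated lanes (1.31, but 0.49 in lane 2). Itpr2, a calcium channel gene of the endoplasmic reticulum, was at 1.40 and 1.13 RPKM in the differentiated lanes and 8.73 and 0.445 RPKM in the undifferentiated lanes, so its ratio of -1.30 was 0.56 in lane 2.

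Receptor genes for other neuropeptides were mostly under the floor, as Trhr was. Of 31 listed besides Trhr, 29 were matched and 27 stayed under 1 RPKM in both libraries. For comparison, 18019 of all 34376 gene rows reached the floor and the rest stayed under it. Oprl1, the nociceptin receptor gene on chromosome 2, was at 1.96 and 1.96 RPKM in the differentiated lanes and 0.113 and 0.243 RPKM in the undifferentiated lanes (1.33). Galr2, a galanin receptor gene, had the highest level of the list in undifferentiated cells, at 0.614 ± 0.0692 RPKM in the differentiated and 0.434 ± 0.0639 RPKM in the undifferentiated library.

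Most genes for enzymes that break TRH down inside cells, and for the relatives of Trhde, were expressed above Trhde. In the differentiated library 10 of the 12 other genes of this list exceeded it. The exceptions were Aqpep, a further M1 gene, at 0.0655 RPKM, and Pgpep1l, at 0.0303 RPKM. Most of all genes exceeded it too, as Trhde was at place 23128 of the 34376 genes in that library. Of the 13 genes with Trhde 10 were at the floor, with 4 higher, none lower and 6 between. The shares were 40% higher and 0% lower, against 19.1% and 8.46% of all genes, and the median log2 ratio was 0.77. Prep, prolyl endopeptidase, and Pgpep1, pyroglutamyl peptidase I, cut TRH in the cytosol and were named after their values were seen. Prep was at 23.7 RPKM in the differentiated and 17.4 RPKM in the undifferentiated library (0.43), and Pgpep1 at 11.5 and 5.68 RPKM (0.90). Among M1 aminopeptidases, the family of Trhde, Rnpepl1 stood at 16.5 ± 0.0908 RPKM in the differentiated and 4.17 ± 0.784 RPKM in the undifferentiated library (1.76). Rnpep, aminopeptidase B, was at 12.9 ± 5.65 and 3.97 ± 0.205 RPKM in these libraries (1.49, with 0.96 and 1.89 in the lanes). Enpep, aminopeptidase A, was at 1.94 ± 0.0557 and 0.0864 ± 0.102 RPKM (1.43), and Erap1, which trims peptides in the endoplasmic reticulum, at 3.33 ± 0.388 and 0.711 ± 0.154 RPKM (1.34). Npepps, the puromycin-sensitive aminopeptidase, had the highest level of the list in both libraries, at 56.9 ± 10.6 RPKM in the differentiated and 43.2 ± 0.605 RPKM in the undifferentiated library (0.39).

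**Figure D3:**
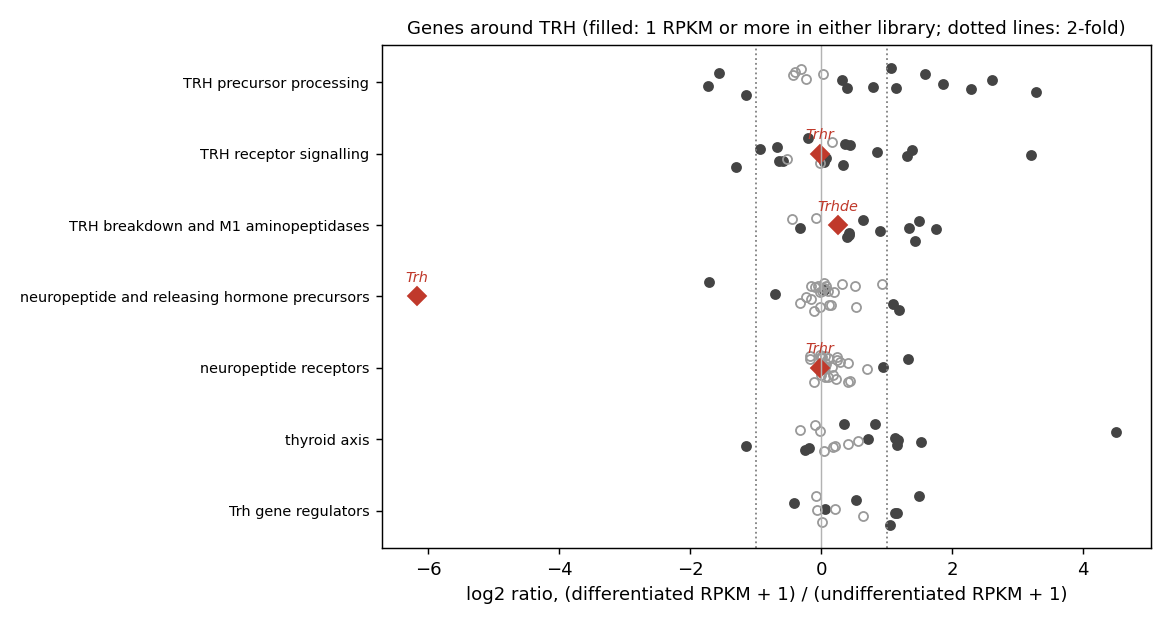
Log2 ratios of differentiated to undifferentiated (RPKM + 1) for the genes of 7 lists, 1 row a list, with filled points at or above 1 RPKM in either library, open points below it and red diamonds for Trh, Trhr and Trhde whatever their level. Trh lies at -6.17, apart from all other points, while Trhr (-0.02, shown in 2 lists) and Trhde (0.26) lie near 0.

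The rest of the thyroid axis was mostly at low levels. Of 20 genes 19 were matched and 11 were at the floor, with 5 higher, 1 lower and 5 between (45.5% and 9.09%, against 19.1% and 8.46% of all genes; median log2 ratio 0.82). Ttr, transthyretin, which carries thyroid hormone and is also made by visceral endoderm, was at 22.7 and 20.7 RPKM in the differentiated lanes and at 0.0117 and 0 RPKM in the undifferentiated lanes (4.49). Slc5a5, the iodide transporter gene, was at 3.33 ± 0.455 RPKM in the differentiated and 0.512 ± 0.0726 RPKM in the undifferentiated library (1.52). Tshr, the thyrotropin receptor gene, was at 1.57 ± 0.12 and 0.154 ± 0.0682 RPKM in these libraries (1.16). Ncor1, a co-repressor gene, had the highest level of the list in the undifferentiated library, at 34.6 ± 2.34 RPKM in the differentiated and 41.1 ± 3.17 RPKM in the undifferentiated library (-0.24). Tshb, the thyrotropin subunit gene that TRH induces in the pituitary, was under the floor, at 0.377 RPKM in the differentiated and 0.0405 RPKM in the undifferentiated library, and was named after its values were seen.

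Factors known to act on the Trh gene in the hypothalamus were present in part. Of 13 genes 12 were matched and 7 were at the floor, with 4 higher, none lower and 3 between (median log2 ratio 1.05). The shares were 57.1% higher and 0% lower, against 19.1% and 8.46% of all genes. With 7 genes, none lower cannot be told apart from the 8.46%. Arnt2, the partner of Sim1, was at 5.95 ± 0.418 RPKM in the differentiated and 1.48 ± 0.112 RPKM in the undifferentiated library (1.49). Creb1, the cyclic AMP response factor gene, was at 10.1 ± 1.37 and 3.96 ± 0.677 RPKM in these libraries (1.16, with 0.89 and 1.42 in the lanes). Thra, a thyroid hormone receptor gene, was at 6.91 ± 0.117 and 2.63 ± 0.0366 RPKM (1.12), and Nr3c1, the glucocorticoid receptor gene, at 8.39 ± 0.282 and 3.52 ± 0.0978 RPKM (1.05). Stat3, which carries the leukaemia inhibitory factor signal in ES cells and the leptin signal in TRH neurons, had the highest level of the list, at 61.7 ± 2.47 RPKM in the differentiated and 42.6 ± 0.709 RPKM in the undifferentiated library (0.53). With trimmed-mean scaling or centring on the median, 2 of the 4 stayed past 2-fold.

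The genes beside Trh had ratios of both signs. Trh was chosen for its low ratio, so nothing is read from how far its neighbours lay from it. Zfyve20, a gene of endosome traffic 27.1 kb from Trh, was at 8.18 ± 0.254 RPKM in the differentiated and 9.13 ± 0.601 RPKM in the undifferentiated library (-0.14), and Mrps25, a mitochondrial ribosomal protein gene at 58.0 kb, at 20.5 ± 1.98 and 25.2 ± 0.292 RPKM (-0.28). Next on that side, at 69.0 kb, Nr2c2, which encodes the orphan nuclear receptor TR4, was at 6.58 ± 0.517 RPKM in the differentiated and 35.5 ± 5.96 RPKM in the undifferentiated library (-2.27). On the other side, upstream of Trh by its strand, Prickle2, a planar polarity gene at 126 kb, was at 4.23 ± 0.102 RPKM in the differentiated and 0.690 ± 0.125 RPKM in the undifferentiated library (1.63). Gm5880, at 320 kb, was under the floor in both libraries. Adamts9, a matrix protease gene at 528 kb, was at 33.7 ± 0.779 RPKM in the differentiated and 2.83 ± 0.276 RPKM in the undifferentiated library (3.18). Of the 6 genes, then, 1 was lower by 2-fold, against 8.46% of all genes at the floor. Both neighbours above the floor upstream were higher, against 19.1%. So few genes cannot be told apart from these shares.

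Of the 12 neighbours of Trhr and Trhde, 1 was past 2-fold, against 27.6% of all genes at the floor. Those under the floor could not be counted, so the 2 are not compared. Trhr lay between genes under the floor, Tmem74 at 326 kb and Gm7459 at 46.1 kb, and further out Nudcd1, Ttc35 and Eny2 were expressed at 17.4, 16.1 and 208 RPKM in the differentiated and 19.5, 20.2 and 113 RPKM in the undifferentiated library (-0.15, -0.31 and 0.87). The remaining neighbour, 2900019E01Rik, was under the floor. Trhde lay in a wide gap between Atxn7l3b, 1470 kb away, and Tph2, the neuronal tryptophan hydroxylase gene, 276 kb away. Atxn7l3b was at 32.4 ± 0.0639 RPKM in the differentiated and 14.7 ± 0.531 RPKM in the undifferentiated library (1.09), and Tph2 was under the floor in both. Of the other neighbours of Trhde, Tbc1d15 (-0.55), Caps2 (0.21) and the row AK048828 (0.10) lay within 2-fold and Kcnc2 was under the floor.

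**Figure D4:**
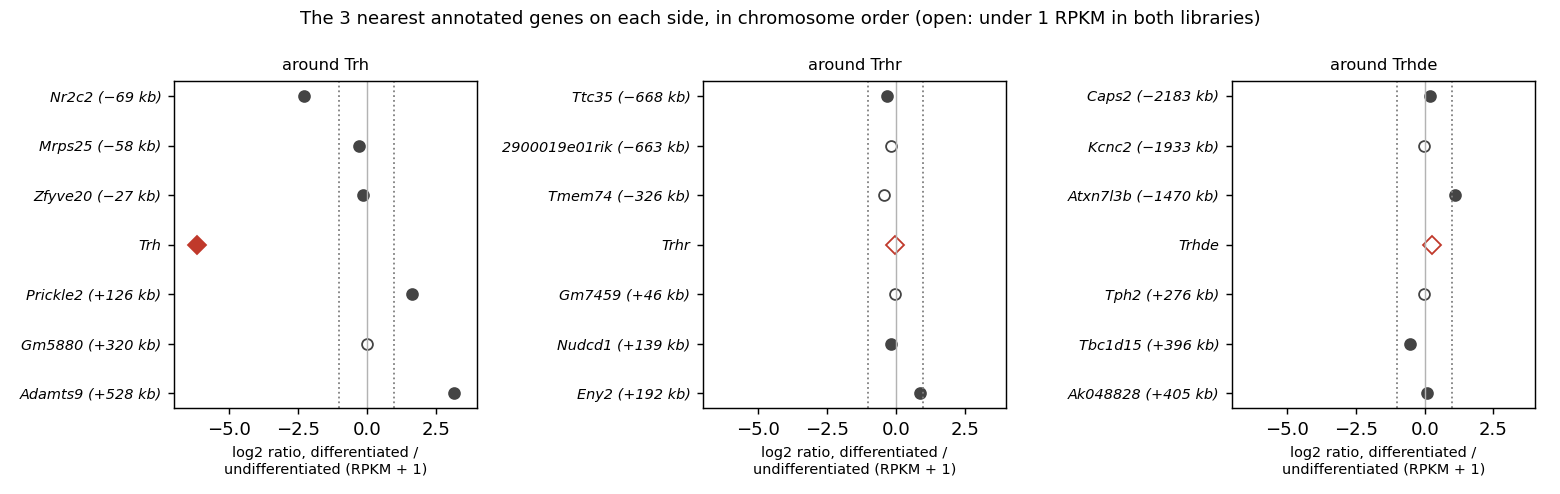
Log2 ratios of differentiated to undifferentiated (RPKM + 1) for the 3 nearest annotated genes on each side of Trh, Trhr and Trhde, in chromosome order with the gap in kb in brackets, and open symbols for genes under 1 RPKM in both libraries. Trh stands at -6.17 between Zfyve20 (-0.14) and Prickle2 (1.63).

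The 8 genes nearest to Trh over the lanes included some known from ES cells, such as Esrrb and Nanog. The likeness uses the same values by which Trh was chosen, so nothing about Trh is read from it. The measure of likeness was the Euclidean distance of log2(RPKM + 1) over the 4 lanes of the 2 libraries, among 12220 genes at the floor with an informative symbol, and the lanes of a library are no independent points. The nearest was Esrrb, an orphan nuclear receptor gene of naive ES cells (distance 0.876), at 2.93 ± 0.0265 RPKM in the differentiated and 163 ± 1.74 RPKM in the undifferentiated library. Next came Nanog (1.16), a homeobox factor gene of pluripotent cells, at 2.96 ± 2.00 and 139.8 ± 1.82 RPKM, and Nr0b1 (1.53), the nuclear receptor gene Dax1, at 1.15 ± 0.0941 and 121 ± 1.26 RPKM. Klf2 (1.63), a Kruppel-like factor gene, was at 3.58 ± 0.0386 RPKM in the differentiated and 114 ± 1.62 RPKM in the undifferentiated library. The others were Cyp2c29 (1.97), Pfkp (2.04), Tdgf1 (2.38) and Zfp42 (2.54), with log2 ratios of -4.37, -4.16, -4.48 and -4.73. Cyp2c29 belongs to a family of near-identical genes that can share reads, and its undifferentiated lanes were at 157 and 103 RPKM. Esrrb, Nanog and Zfp42 are also among the 7 ES cell markers described next. The log2 ratio of Trh, -6.17, was below those of all 8. As Trh was chosen for its low ratio, nothing is read from that order.

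**Figure D5:**
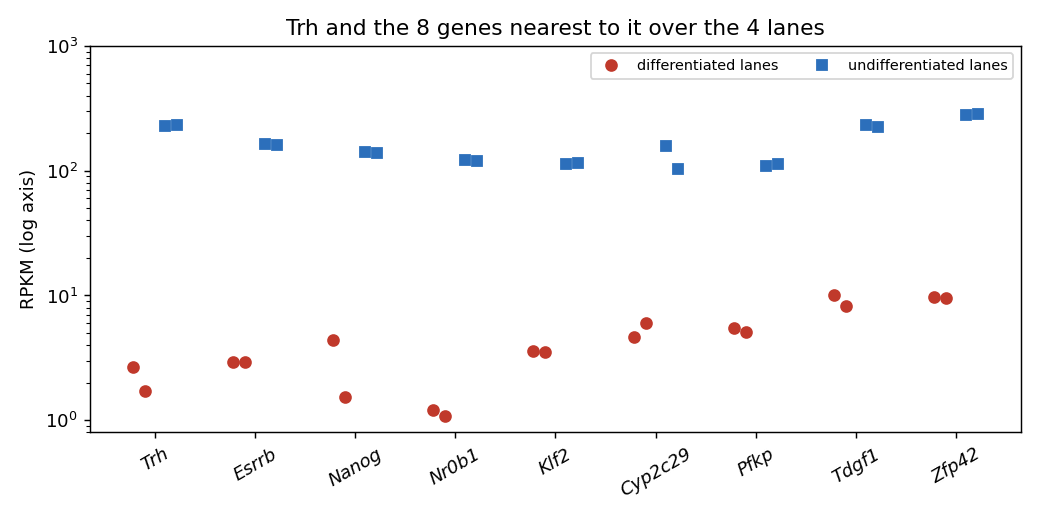
RPKM on a log axis of Trh and the 8 genes nearest to it, with red circles for the differentiated lanes and blue squares for the undifferentiated lanes. All 9 genes stand above 100 RPKM in every undifferentiated lane, and Trh and Nr0b1 have the lowest differentiated means, 2.19 and 1.15 RPKM.

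Markers described the cells behind these values. All 7 ES cell markers were lower by 2-fold or more in the differentiated library, against 8.46% of all genes at the floor. Their summed level was 103 RPKM there and 1506 RPKM in the undifferentiated library. All 10 extraembryonic endoderm markers were higher by as much, against 19.1% of all genes (summed level 2373 RPKM, against 44.5). The labels do not name the cell types in the mixed population. Neuron markers summed to 18.6 RPKM in the differentiated and 44.0 RPKM in the undifferentiated library, mostly through Tubb3, and 3 of 7 were under the floor. The 5 matched markers of hypothalamus and pituitary (Otp, Rax, Nkx2-1, Pou1f1 and Tshb) were all under the floor in both libraries. Their sums were 0.862 RPKM in the differentiated and 0.603 RPKM in the undifferentiated library. Among all 34376 gene rows, 18019 reached the floor. Feeder fibroblast markers summed to 225 RPKM in the differentiated and 31.3 RPKM in the undifferentiated library, through Col1a1, Col1a2 and Col3a1. Thy1, Postn and Lox were at 2.13, 1.63 and 2.46 RPKM in the differentiated and 3.43, 2.69 and 2.50 RPKM in the undifferentiated library, and the part of feeder cells in the values of Trh was not tested.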

How the data were processed

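Poly(A) RNA of 2 libraries was sequenced, per the labels' protocols, with single-end reads of 36 bp, each library on 2 lanes. The authors deposited 3 tables of lane values and lane means whose build is mm9 by the submitters' processing notes. The unit is not named in the file headers. The deposited values were read as RPKM, since their column sums differ and, in genes of 1 exon, low values times length fell on multiples of a constant (82.0% to 82.4% of values within 5% of a read). That constant implied about 33000000 and 32000000 reads in the differentiated lanes and 37800000 and 36100000 in the undifferentiated lanes. For the aligner, the counting program and the annotation, names were not given in the sources used here. Strand is not marked by the kit.

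The log2 ratio sets differentiated against undifferentiated RPKM after adding 1 to both, so it is too small for weakly expressed genes. Genes reaching 1 RPKM in one library or the other were counted when past 2-fold. Approximate reads are RPKM times the GENCODE vM21 transcript length over the value of 1 read, and are not whole numbers. Counting limits cover counting error only. Genes were matched by symbol, or by a RefSeq synonym for Aqpep, Tfcp2l1 and Map2. Ghrh, Cartpt, Prlh, Ghrhr, Galr1, Dio1, Sim1, Prl and Gh1 had no match by either name and were left out. Of 2 rows named Oprl1, the one on the chromosome RefSeq gives was used. Coordinates count the first base as 1.

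The members and lists were chosen with earlier results of these data known. Genes named are the 3 members, up to 4 genes past 2-fold per list with the largest absolute ratio, the highest gene of each list in each library, the 3 nearest genes on each side of a member and the 8 genes most like Trh. Some genes that this rule names are not reported here. Calculations used Python 3.11.15, pandas 2.3.3 and numpy 2.4.6, figures matplotlib 3.10.9, and the counting was tested on simulated data. Alternatives were other pseudocounts, floors, scalings and single lanes.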

Additional observations from a re-analysis of the deposited data

How the results depend on the processing

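Of 98 recomputed ratios and counts, 82 stayed within the lane SD, or within 1.5 times for counts. Ratios and shares of single lanes are not among the 98, since each lane lies within 1 SD of the mean of both. The share of Trhde given to the NM_146241 transcript was 47.2% over both lanes, 100% in lane 1 and 9.62% in lane 2, and the Trh ratio kept its sign in every setting. Among single genes, Itpr2 was -2.02 in lane 1 and 0.56 in lane 2. The log2 ratio of Trh lay between -5.97 and -6.42 in all settings but a pseudocount of 0.1, which gave -6.65. Trhde and Trhr depend on the pseudocount by its construction. With 0.1 they were 1.55 and -0.21, with 0.5 Trhde was 0.47, and centring on the median gave 0.13 and -0.15. With a floor of 5 RPKM fewer genes are counted, and 2 genes of the breakdown list, 2 precursors, 3 genes of the thyroid axis and 0 neuropeptide receptors were past 2-fold. Regulators of Trh past 2-fold were 2 after centring and 2 after trimmed-mean scaling. Neuropeptide receptors past 2-fold were 2 instead of 1 with a pseudocount of 0.1, of 0.5, with equal column sums and in lane 2, the added gene being the orexin receptor gene Hcrtr1. Over the 18019 genes centring, trimmed-mean, upper-quartile and equal-sum scaling shifted the median ratio by -0.12, -0.14, -0.11 and 0.21. Of genes past 2-fold 69.3% were higher as deposited, and 59.4%, 58.2%, 61.1% and 80.6% under these scalings. At the length of Trh, 3 reads stand for 0.0333 RPKM in the differentiated and 0.0293 RPKM in the undifferentiated library. No paired analysis was possible because each condition has 1 library.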

Other observations

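A second gene row bears the name Oprl1, on chromosome 16 of mm9 (48611817 to 48631018), where RefSeq has no gene of this symbol. It stood at 0.982 and 1.36 RPKM in the differentiated lanes and 9.82 and 8.94 RPKM in the undifferentiated lanes, a log2 ratio of -2.26, opposite to the 1.33 of the row on chromosome 2. A lookup by symbol that takes the higher row would turn the direction of this receptor gene. What this row measures was not tested.

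The rows AK220028 and Gm9980, which had lower ratios than Trh, were at 0 and 0.0629 RPKM in the differentiated library and 90.2 and 79.6 RPKM in the undifferentiated library. Both undifferentiated lanes held the high value in each, at 81.7 and 98.7 RPKM for AK220028 and 76.4 and 82.8 RPKM for Gm9980.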
